A study of Mus musculus with 18 samples.

Results

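The 4 muscle actin genes of the mouse, Actc1, Acta1, Acta2 and Actg2, were followed through direct cardiac reprogramming, in which heart fibroblasts are pushed towards a cardiomyocyte-like state. They were found by symbol among the 23420 genes of the count tables, and all 4 passed the filter on low counts that left 14162 genes for testing. Fibroblasts were taken as primary cells from hearts of newborn CD1 mice, and every culture used here carried a retrovirus with Mef2c, Gata4 and Tbx5 on 1 transcript. The second of 2 sample sets holds 12 libraries in 4 groups of 3: short hairpin RNAs (shRNAs) against both Mtfr1l and Opa1, against Mtfr1l, against Opa1, and a non-targeting one (shNT). Mtfr1l is a protein of the mitochondrial outer membrane, and Opa1 is the GTPase that fuses inner mitochondrial membranes. The titles place replicates 1, 2 and 3 of each group at days 7, 8 and 9, which another numbered field of the labels leaves in doubt, the cells are labelled as fibroblasts and induced cardiomyocytes, and no sorting is named. The first set has 1 reprogramming sample with the Mtfr1l shRNA and 1 with shNT, both at day 7. The labels call the second-set libraries biological replicates but do not say whether they came from separate animals, so p-values measure the spread between these libraries. In bulk RNA, fewer cells of a type and less RNA per cell cannot be told apart.

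Actin is the protein of the thin filament, along which myosin pulls. Mammals make cytoplasmic actins (Actb, Actg1) in nearly every cell and 4 muscle forms that differ in few residues. Actc1 encodes the main actin of the adult heart, and Acta1 the actin of skeletal muscle, which the heart also makes, above all before birth and under load. Acta2 encodes the vascular smooth muscle actin, which fibroblasts make when they turn into contractile myofibroblasts and which the embryonic heart also uses. Actg2 encodes the actin of visceral smooth muscle. Transcription of muscle actins depends on serum response factor (SRF), which binds a short element called the CArG box, together with myocardin or the actin-sensing MRTF cofactors.

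On mm10, the counted genes lie on the minus strand at chr2:114047289-114052811 (Actc1), chr8:123891758-123894775 (Acta1), chr19:34240336-34255373 (Acta2) and chr6:83512909-83536251 (Actg2). Their summed exons are 1390, 1571, 2572 and 1315 bases long in that order. The beginnings of the 4 coding sequences, from GENCODE transcripts, are shown because reads can be given to an isoform only where the isoforms differ. Capitals mark bases that differ from Actc1 after alignment.
Actc1: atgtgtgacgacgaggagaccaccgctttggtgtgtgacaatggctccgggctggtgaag
Acta1: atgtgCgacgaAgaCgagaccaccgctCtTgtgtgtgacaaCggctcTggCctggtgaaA
Acta2: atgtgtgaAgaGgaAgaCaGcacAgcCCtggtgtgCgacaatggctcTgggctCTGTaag
Actg2: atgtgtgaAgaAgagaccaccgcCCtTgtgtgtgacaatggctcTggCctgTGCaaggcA
Of these 60 bases, Acta1 differed from Actc1 at 9, Acta2 at 14 and Actg2 at 11. Actg2 is 1 codon shorter, with 376 codons against 377 in the others. Over the whole coding sequence the isoforms were 82.5% to 86.2% identical to each other, with Actc1 and Acta1 the closest. Of all windows of 50 coding bases, 0 of 1085 of Actc1 and 0 of 1082 of Actg2 occurred in another gene. For Acta1 2.9% of these windows did, and for Acta2 0.6%, shared with cytoplasmic actins and with pseudogenes. No window of 100 bases was shared. Reads that map to several places were not counted.

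The RefSeq promoters of Actc1, Acta1 and Acta2 (GRCm38.p6, 250 bases before to 50 after the annotated start) are shown because the levels of these 3 genes went apart under the shRNAs although all 3 are SRF targets. Capitals mark a CArG box or the same box with 1 other letter in its middle. The windows are chr2:114052826-114053125 (Actc1), chr8:123894726-123895025 (Acta1) and chr19:34255324-34255623 (Acta2), all on the minus strand.
Actc1: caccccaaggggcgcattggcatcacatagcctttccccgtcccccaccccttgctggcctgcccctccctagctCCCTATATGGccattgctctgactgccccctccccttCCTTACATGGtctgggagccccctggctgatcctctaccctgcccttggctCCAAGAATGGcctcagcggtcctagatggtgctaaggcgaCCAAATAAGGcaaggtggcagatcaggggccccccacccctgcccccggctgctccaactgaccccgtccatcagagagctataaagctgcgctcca
Acta1: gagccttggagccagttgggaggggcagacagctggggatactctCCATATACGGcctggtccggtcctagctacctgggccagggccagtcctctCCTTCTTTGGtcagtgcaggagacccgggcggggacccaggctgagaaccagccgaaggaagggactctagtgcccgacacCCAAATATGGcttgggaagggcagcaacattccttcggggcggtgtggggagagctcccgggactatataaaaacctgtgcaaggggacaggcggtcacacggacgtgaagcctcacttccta
Acta2: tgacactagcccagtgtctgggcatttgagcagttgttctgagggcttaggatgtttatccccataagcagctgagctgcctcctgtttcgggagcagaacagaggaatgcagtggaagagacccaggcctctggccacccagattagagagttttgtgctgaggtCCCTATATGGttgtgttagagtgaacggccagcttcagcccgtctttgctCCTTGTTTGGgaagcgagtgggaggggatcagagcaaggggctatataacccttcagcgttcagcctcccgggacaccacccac
Counting both strands, Actc1 held 4 such boxes, Acta1 3 and Acta2 2, and 10.0% of 32544 promoters of this length held at least 1. A box that matches in full stood once in Actc1 (CCAAATAAGG, 47 bases before the start) and once in Acta1 (CCAAATATGG, 73 bases before the start), and in 1.6% of all promoters. The Acta2 window held boxes with 1 other letter alone. The box CCCTATATGG stood in both Actc1 and Acta2. The MEF2 box, searched on both strands because Mef2c is on the virus, matched none of the 3 windows and 3.2% of all promoters. The letters GATA, which Gata4 binds, stood on neither strand of Actc1, once in Acta1 and once, on the other strand, in Acta2, and in 57.7% of all promoters. The letters GGTGTG of a T-box site stood once in Acta1, and in 19.0% of all promoters. CATTCC, the M-CAT element that TEAD factors bind, stood once in Acta1 and once, on the other strand, in Acta2, and in 14.6% of all promoters. The letters TATAAA stood 33 bases after the RefSeq start of Actc1, 7 bases before that of Acta1 and nowhere in Acta2, and in 13.6% of all promoters. The RefSeq start of Actc1 also lies 64 bases upstream of the start in the counting annotation. Positions are relative to the annotated starts, so the 47 bases of Actc1 and the 73 of Acta1 are not compared. The table has no entry for Actg2.

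Library totals ran from 16205862 to 25317069 counts, and a chi-square test between replicates gave 5.32 to 10.04 per gene, far over sampling noise. Mtfr1l averaged 27.2 ± 4.15 CPM (counts per unit of library depth after TMM scaling) in the double knockdown, 16.4 ± 2.88 with shMtfr1l alone, 69.6 ± 3.34 with shOpa1 and 71.9 ± 4.17 with shNT (SD, n = 3 each). Opa1 averaged 18.3 ± 2.34 CPM in the double knockdown, 72.1 ± 1.35 with shMtfr1l, 8.96 ± 3.16 with shOpa1 alone and 63.1 ± 8.33 with shNT (SD, n = 3 each). Each target was thus left higher in the double knockdown than under its own shRNA alone, 1.66-fold for Mtfr1l and 2.04-fold for Opa1 (edgeR adjusted p = 5.27e-06 and 0.00745), and the part of this in the double-knockdown results below was not tested.

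Actc1, the cardiac actin, moved in opposite directions in the single knockdowns. Replicates 1, 2 and 3 had 158, 178 and 199 CPM in the double knockdown, 420, 367 and 381 CPM with shMtfr1l, 90.9, 90.5 and 71.0 CPM with shOpa1, and 141, 147 and 148 CPM with shNT. The groups did not overlap, and the order was shMtfr1l, double knockdown, shNT and shOpa1. With shMtfr1l against shNT the rise was 2.68-fold, a log2 fold change of 1.42 ± 0.10 (SE, edgeR adjusted p = 2.03e-07). With shOpa1 against shNT Actc1 was 1.73-fold lower (log2 -0.79 ± 0.10, edgeR adjusted p = 2.32e-05). Adding the Opa1 shRNA to the Mtfr1l shRNA left Actc1 2.19-fold lower than with shMtfr1l alone (log2 -1.13, edgeR adjusted p = 8.27e-07). Adding the Mtfr1l shRNA to the Opa1 shRNA left it 2.12-fold higher than with shOpa1 alone (log2 1.08, edgeR adjusted p = 1.63e-05). These 4 differences stayed called under every alternative run.

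The double knockdown and shNT, which are neighbours in the order of Actc1 levels, were close. Actc1 was 1.23-fold higher in the double knockdown (95% interval 1.06 to 1.41, edgeR adjusted p = 0.0411). This call is not stable: the adjusted p was 0.0953 with replicate number as a block and 0.0515 with DESeq2's size factors. It was 0.102 or 0.103 without replicate 2 or 3 of the double knockdown, and 0.172, 0.113 or 0.103 without replicate 1, 2 or 3 of shNT. The 2 knockdowns together gave less Actc1 than the sum of their log2 effects, by -0.34 ± 0.14 (SE), but this interaction did not pass over all genes (edgeR adjusted p = 0.238). It passed with no filter on low counts (edgeR adjusted p = 0.00432) and without replicate 3 of shOpa1 (edgeR adjusted p = 0.00541), the library with the lowest Actc1.

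Acta1, the skeletal actin, was higher in every knockdown group than with shNT, unlike Actc1. Replicates 1, 2 and 3 had 4.44, 5.80 and 4.47 CPM in the double knockdown, 6.91, 2.63 and 5.51 CPM with shMtfr1l, 5.45, 5.80 and 2.81 CPM with shOpa1, and 2.32, 2.50 and 1.65 CPM with shNT. No knockdown library fell to the level of an shNT library, but the lowest one of shMtfr1l and the highest one of shNT lay close together. The rises over shNT were 2.27-fold in the double knockdown, 2.33-fold with shMtfr1l and 2.17-fold with shOpa1 (edgeR adjusted p = 0.00678, 0.0118 and 0.00872). The 95% intervals of these folds were wide, at 1.43 to 3.61, 1.46 to 3.71 and 1.36 to 3.46.

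These rises of Acta1 rest on 35 to 149 counts a library. For shMtfr1l the call was lost without its replicate 1 (edgeR adjusted p = 0.142) or without replicate 3 of shNT (0.0772). For shOpa1 it was lost without its replicate 2 (edgeR adjusted p = 0.0586) or without replicate 3 of shNT (0.0581), and for the double knockdown without replicate 3 of shNT (0.0516). Among the knockdown groups no difference was called: Acta1 in the double knockdown was 1.03-fold lower than with shMtfr1l, with a 95% interval of 0.627 to 1.52 around the fold change, and 1.05-fold higher than with shOpa1, with an interval of 0.674 to 1.63. The interaction of the knockdowns was -1.153 ± 0.456 on the log2 scale (SE) and did not pass over all genes (edgeR adjusted p = 0.178).

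Acta2, the smooth muscle and myofibroblast actin, was the most abundant of the 4 and fell by a small amount in every knockdown group. Replicates 1, 2 and 3 had 2301, 2280 and 2297 CPM in the double knockdown, 2543, 2438 and 2434 CPM with shMtfr1l, 2501, 2513 and 2416 CPM with shOpa1, and 3036, 2816 and 2800 CPM with shNT. Every knockdown library was below every shNT library. Acta2 was 1.26-fold lower in the double knockdown, 1.17-fold lower with shMtfr1l and 1.16-fold lower with shOpa1 than with shNT (edgeR adjusted p = 3.23e-08, 9.58e-05 and 2.79e-05). These 3 falls stayed called under every alternative run.

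Acta2 averaged 2472 ± 61.4 CPM with shMtfr1l and 2477 ± 53.1 CPM with shOpa1, and the double knockdown, at 2293 ± 11.2 CPM, lay under both without overlap (SD, n = 3 each). Against shMtfr1l it was 1.08-fold lower (edgeR adjusted p = 0.044), a call lost with the replicate block (edgeR adjusted p = 0.0517), with DESeq2's size factors (0.058), with no filter on low counts (0.0647) and without any 1 of the 6 libraries compared (0.0554 to 0.126, and 0.186 without replicate 1 of shMtfr1l). Against shOpa1 it was also 1.08-fold lower, which did not pass after adjustment (unadjusted 95% interval of the fold change 0.876 to 0.978, edgeR adjusted p = 0.104).

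Actg2, the visceral smooth muscle actin, was called in no comparison. Replicates 1, 2 and 3 had 13.03, 13.19 and 12.63 CPM in the double knockdown, 16.1, 15.5 and 14.9 CPM with shMtfr1l, 11.88, 18.02 and 12.31 CPM with shOpa1, and 12.9, 11.4 and 13.2 CPM with shNT. The shMtfr1l libraries stood above the shNT ones without overlap, by 1.24-fold, with a 95% interval of 0.99 to 1.56 (edgeR adjusted p = 0.257). Replicate 2 of shOpa1 stood above every other library, and the shOpa1 difference from shNT (log2 0.17) turned to -0.05 without it.

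**Figure D1:**
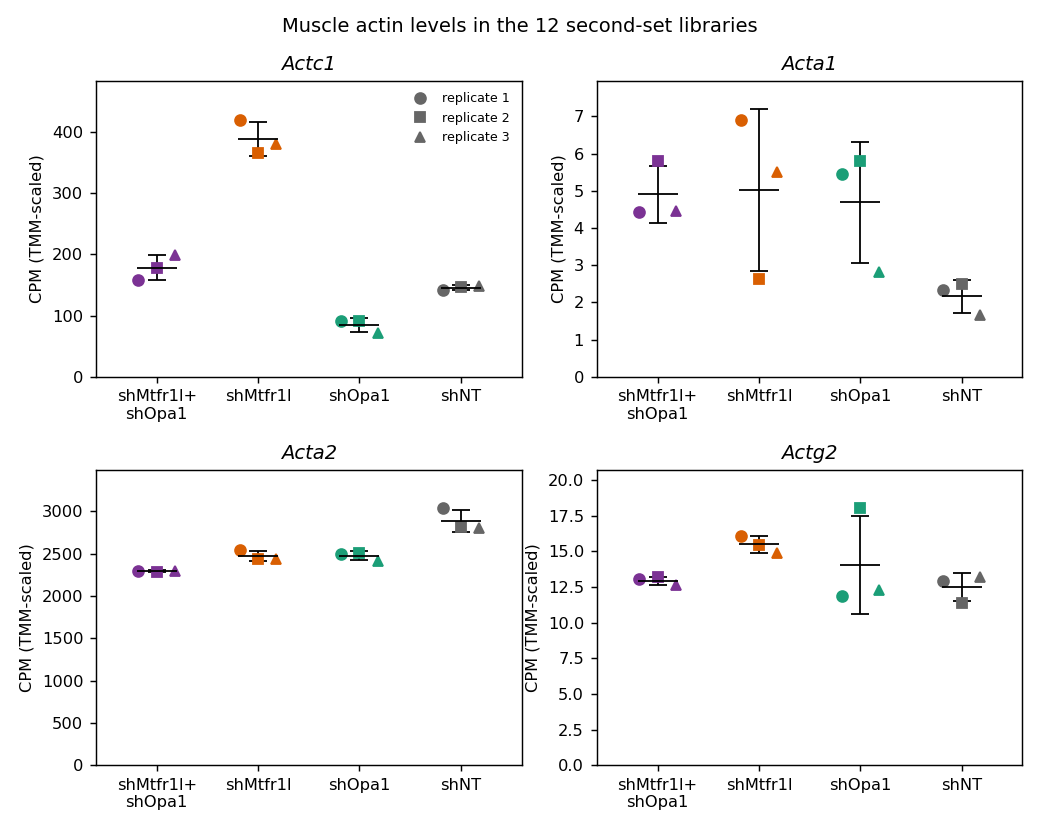
TMM-scaled CPM of each muscle actin (y axes, linear from 0) in the 4 groups of the second set, with 1 symbol per library by replicate number and bars for the mean ± SD (n = 3). Actc1 is highest with shMtfr1l and lowest with shOpa1, Acta1 is lowest and Acta2 highest with shNT, and Actg2 overlaps between shOpa1 and all other groups.

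These calls stand against the share of all genes called in the same comparison by edgeR at an adjusted p under 0.05. With shMtfr1l against shNT, 2 of the 4 muscle actins rose and 1 fell, where 10.8% of all genes were called (5.56% higher and 5.19% lower). With shOpa1, 1 rose and 2 fell, where 29.4% were called (14.3% higher and 15.1% lower). In the double knockdown against shNT, 2 rose and 1 fell, where 23.1% were called (11.2% higher and 11.9% lower). Against shMtfr1l, 2 were lower in the double knockdown, where 21.5% of all genes were called (9.72% higher and 11.7% lower). Against shOpa1, 1 was higher, where 4.77% were called (2.31% higher and 2.46% lower). None of the 4 was called for the interaction, where 3.56% of all genes were (1.57% higher and 1.99% lower); 2 of the 4 had an unadjusted p under 0.05, and DESeq2 called none. The comparisons against shNT share the shNT libraries. How many of all genes have groups without overlap was not counted, so the lack of overlap given above only describes these libraries.

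**Figure D2:**
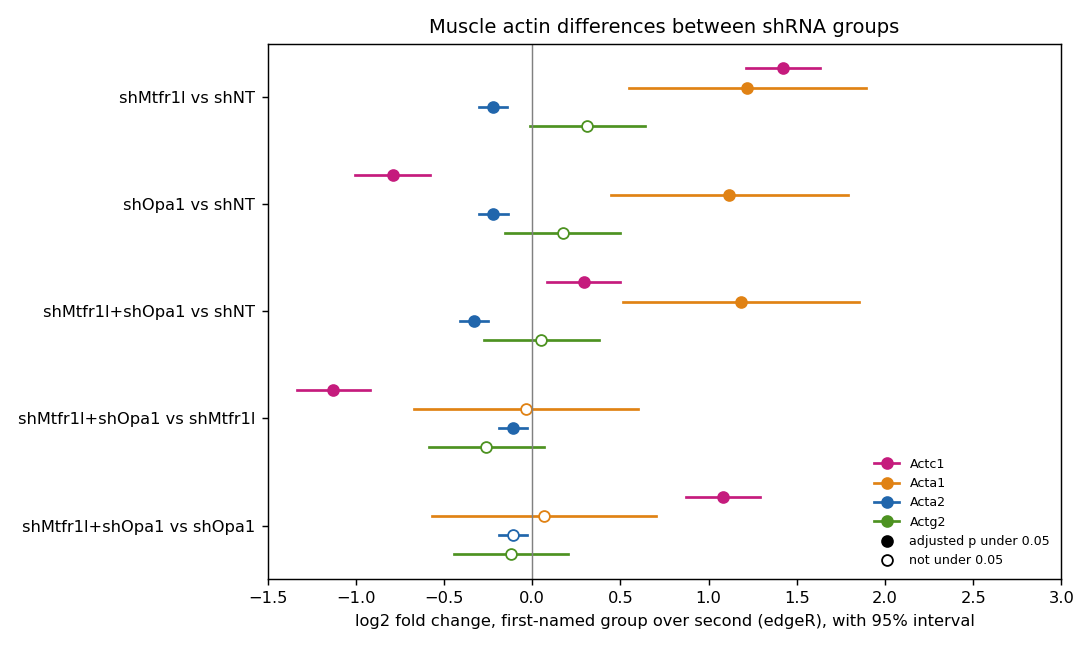
Log2 fold change of each muscle actin (x axis, first-named group over the second) with its 95% interval from the edgeR fit, for 5 comparisons (y axis). Filled points passed an adjusted p of 0.05. Actc1 lies right of 0 with shMtfr1l and left of 0 with shOpa1, while Acta1 lies right of 0 and Acta2 left of 0 in all 3 comparisons with shNT.

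Set against each other, the isoforms changed their shares of the muscle actin counts. Actc1 made up 7.16 ± 0.77% of them in the double knockdown, 13.5 ± 0.55% with shMtfr1l, 3.26 ± 0.36% with shOpa1 and 4.79 ± 0.32% with shNT (SD, n = 3 each). Acta2 held nearly all the rest, with 92.1 ± 0.76%, 85.8 ± 0.61%, 96.0 ± 0.48% and 94.7 ± 0.32% in the same order. A scale per kilobase of summed annotated exon is rough between genes, because the transcript forms made here were not examined. On it the share of Actc1 was 12.4% in the double knockdown, 22.3% with shMtfr1l, 5.82% with shOpa1 and 8.47% with shNT. On that scale Acta2 exceeded Actc1 by 7.02 ± 0.82 times in the double knockdown, 3.44 ± 0.16 times with shMtfr1l, 16.1 ± 2.00 times with shOpa1 and 10.7 ± 0.78 times with shNT (SD, n = 3 each).

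Over all 12 libraries, the Mtfr1l shRNA raised the share of Actc1 by 6.31 percentage points, with 10.3% in the libraries that carry it against 4.02% in those without. The Opa1 shRNA lowered it by 3.94 points, with 5.21% against 9.14%. Both had an exact permutation p of 0.005, the smallest that 400 arrangements can give (2-sided, adjusted p = 0.01 over 8 tests). The share of Acta2 differed by -6.42 points with the Mtfr1l shRNA and was 3.81 points higher with the Opa1 shRNA (exact permutation p = 0.005 each, adjusted p = 0.01). Actc1 and Acta2 make up nearly all of these counts, so the Acta2 differences mirror those of Actc1 and are not a second result. The level of Acta2 itself was 1.16-fold lower with shOpa1 than with shNT. Its higher share with the Opa1 shRNA holds among muscle actins alone: with Actb and Actg1 in the denominator, the share of Acta2 was 1.55 points lower with the Opa1 shRNA (a difference of -1.55, exact permutation p = 0.005). The Mtfr1l shRNA went with 8.72 points more Actc1 where the Opa1 shRNA was absent and 3.90 points more where it was present. For the Opa1 shRNA the difference in Actc1 was -1.53 points where the Mtfr1l shRNA was absent and -6.34 points where it was present.

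Acta1 and Actg2 were each under 1% of the muscle actin counts. Acta1 made up 0.197 ± 0.032% in the double knockdown, 0.173 ± 0.072% with shMtfr1l, 0.181 ± 0.059% with shOpa1 and 0.0708 ± 0.014% with shNT, and Actg2 0.520 ± 0.016%, 0.538 ± 0.011%, 0.544 ± 0.124% and 0.411 ± 0.032% (SD, n = 3 each). Their shares passed for neither shRNA (exact permutation p = 0.115 and 0.285 for the Mtfr1l shRNA, 0.075 and 0.195 for the Opa1 shRNA). Of the striated isoforms, Actc1 and Acta1 together, Acta1 made up 2.70 ± 0.48% of the counts in the double knockdown, 1.252 ± 0.48% with shMtfr1l, 5.16 ± 1.18% with shOpa1 and 1.46 ± 0.31% with shNT (SD, n = 3 each). The shOpa1 libraries, from 3.81% to 6.03%, lay above all others, whose highest was 3.16%.

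**Figure D3:**
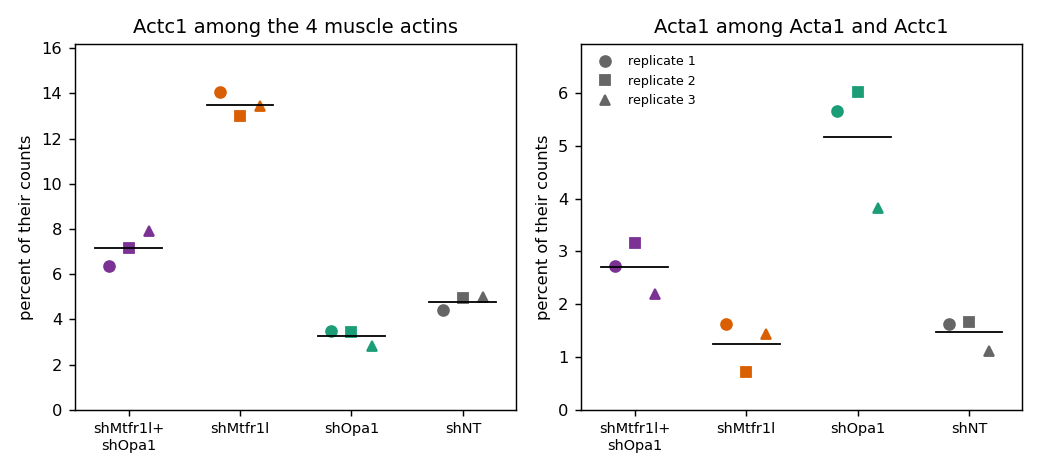
Share of Actc1 among the counts of the 4 muscle actins (left) and of Acta1 among the counts of Acta1 and Actc1 (right), in percent, with 1 symbol per library and a line at the group mean. The Actc1 share is 13.5% with shMtfr1l against 4.79% with shNT, and the Acta1 share of the striated isoforms is 5.16% with shOpa1 against 1.46% with shNT.

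The cytoplasmic actins gave a level to hold these against. Actb averaged 3297 ± 62.5 CPM in the double knockdown, 3287 ± 47.0 with shMtfr1l, 3123 ± 24.8 with shOpa1 and 3236 ± 50.7 with shNT, and Actg1 1517 ± 21.4, 1543 ± 21.6, 1537 ± 48.2 and 1585 ± 27.5 (SD, n = 3 each). Neither was called in any comparison. The summed muscle actins reached 2489 ± 21.4 CPM in the double knockdown, 2881 ± 90.8 with shMtfr1l, 2580 ± 67.9 with shOpa1 and 3045 ± 129 with shNT (SD, n = 3 each). They made up 34.1%, 37.4%, 35.6% and 38.7% of the counts of all 6 actins in that order.

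Replicate numbers, which the titles give as days, were set in the fit beside the groups. With group and replicate number in the fit, the number terms were called for 0 of 14162 genes (edgeR, 0.0%, 412 genes at an unadjusted p under 0.05). The 4 isoforms had unadjusted p-values of 0.976 (Actc1), 0.34 (Acta1), 0.223 (Acta2) and 0.65 (Actg2). The fitted log2 difference of replicate 3 from replicate 1 was -0.42 for Acta1, -0.06 for Acta2, and -0.02 for both Actc1 and Actg2, and Acta2 was lower in replicate 3 than in replicate 1 of every group. A p over the threshold does not show that the numbers were alike. Day and replicate number cannot be told apart.

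Genes whose products build thin filaments and Z-discs beside Actc1 were read as a list of 20, all tested. With shMtfr1l against shNT 12 were higher and none lower (edgeR, adjusted p under 0.05), with a median log2 fold change of 0.54, against 0.003 over all genes. Among them were Tnnc1, the calcium-binding troponin (2.63-fold, edgeR adjusted p = 6.93e-08), Tnni3, the adult cardiac inhibitory troponin (2.24-fold, 5.1e-07), and Ldb3, a Z-disc protein (1.54-fold, 9.52e-09). Cap2, an actin monomer recycling factor of muscle, was 2.10-fold higher (edgeR adjusted p = 4.96e-10). With shOpa1 2 were higher and 6 lower, with a median of -0.33 against 0.01 over all genes. All-gene shares called were 10.8% with shMtfr1l and 29.4% with shOpa1. Tnni1, the troponin of slow muscle and the fetal heart, was 6.04-fold lower, Cap2 1.64-fold, Tnnt2, the cardiac tropomyosin-binding troponin, 1.52-fold and Ldb3 1.43-fold (edgeR adjusted p = 6.54e-10, 1.05e-06, 2.96e-14 and 1.14e-07).

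In the double knockdown 3 of these 20 were higher and 2 lower than with shNT, at a median of 0.001 against 0.004 over all genes. Tnnc1 was 2.04-fold higher, while Tnni1 was 2.86-fold and Tnnt2 1.29-fold lower (edgeR adjusted p = 8.3e-06, 1.22e-05 and 2.29e-08). Against shMtfr1l 10 were lower and none higher, and against shOpa1 7 were higher and none lower. Of all genes 23.1% were called against shNT, 21.5% against shMtfr1l and 4.77% against shOpa1. For the interaction Tnni3 and Cap2 were called, both lower than the sum of the single effects (log2 -0.91 and -0.49, edgeR adjusted p = 0.0107 and 0.0466). The all-gene share called for the interaction was 3.56% (1.57% higher and 1.99% lower).

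The RNA of SRF and its cofactors, the regulators shared by the muscle actins, differed from shNT by at most 1.21-fold where called. The activity of these regulators was not measured. With shMtfr1l Mkl2, which encodes MRTF-B, was 1.21-fold higher (edgeR adjusted p = 0.0268), and Srf, Mkl1 and Myocd were not called. With shOpa1 Srf was 1.19-fold higher and Mkl1, which encodes MRTF-A, 1.21-fold higher (edgeR adjusted p = 0.00227 and 0.0226). In the double knockdown none of the 4 was called against shNT (edgeR, with Srf at an adjusted p of 0.0638). All-gene shares called were 10.8% with shMtfr1l, 29.4% with shOpa1 and 23.1% in the double knockdown.

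Other SRF and MRTF targets, a list of 22 without the muscle actins, moved in both directions. With shMtfr1l 2 were higher and 5 lower than with shNT, with shOpa1 6 were higher and 10 lower, and in the double knockdown 5 were higher and 9 lower. The shares of all genes called were 10.8%, 29.4% and 23.1% in the same order. Tagln, a smooth muscle actin-bundling protein, was 1.13-fold lower with shMtfr1l, next to the 1.17-fold of Acta2, while Ankrd1, a cardiac load-response gene, was 1.28-fold higher (edgeR adjusted p = 0.0115 and 7.59e-07). With shOpa1 Ctgf, a matrix signalling gene, was 1.66-fold higher and Itga5, a fibronectin receptor subunit, 1.88-fold higher, while Myl9, a myosin light chain of smooth muscle and non-muscle cells, was 1.52-fold lower (edgeR adjusted p = 1.39e-16, 8.75e-17 and 1.52e-12).

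**Figure D4:**
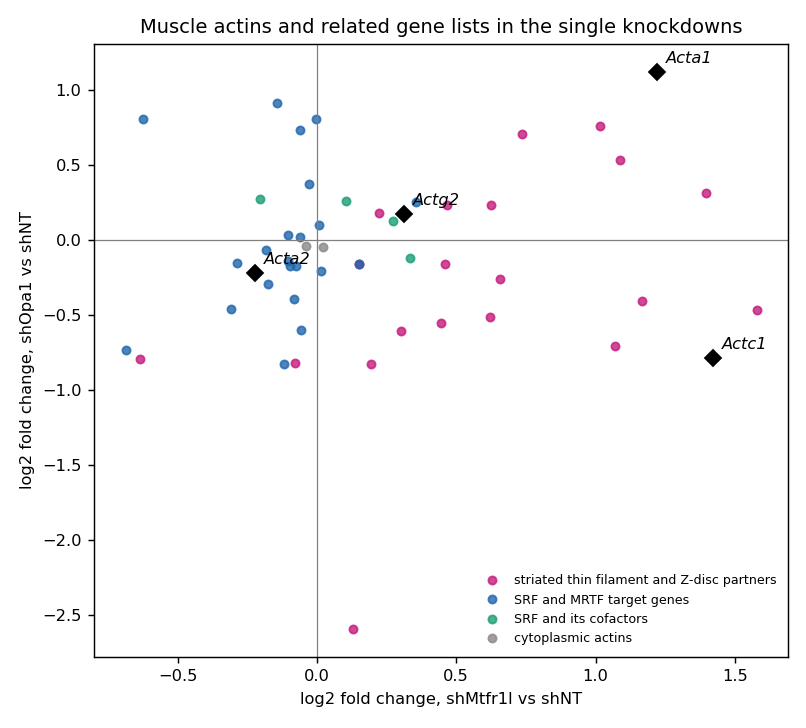
Log2 fold change with shMtfr1l against shNT (x axis) and with shOpa1 against shNT (y axis) of the muscle actins (black diamonds) and of the genes of 4 lists (coloured points). Both axes share the shNT libraries. Actc1 lies at the lower right (1.42, -0.79), Acta1 at the upper right (1.22, 1.12) and Acta2 at the lower left (-0.22, -0.22), with the cytoplasmic actins near 0.

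Of genes for actin turnover, 22 of a list of 24 were in the files and tested. With shMtfr1l 2 were higher and 4 lower than with shNT, with shOpa1 5 higher and 7 lower, and in the double knockdown 3 higher and 6 lower. Over all genes 10.8%, 29.4% and 23.1% were called in these comparisons. The 2 higher with shMtfr1l, Cap2 and Cfl2, are also in the thin filament and Z-disc list. Arpc2, a subunit of the complex that branches actin filaments, was 1.78-fold lower with shMtfr1l (edgeR adjusted p = 2.28e-14), and Gsn, which severs filaments, was 1.36-fold lower with shOpa1 (edgeR adjusted p = 1.26e-08). Of 13 genes for actin folding, subunits of the chaperonin CCT and of prefoldin and their helpers, 1 was higher and 1 lower with shMtfr1l. With shOpa1 4 were higher and none lower, all CCT subunits at 1.14-fold to 1.16-fold (Cct2, Cct3, Cct6a and Cct8), and in the double knockdown 4 were higher and none lower. All-gene shares were 29.4% called and 14.3% higher with shOpa1, and 23.1% called and 11.2% higher in the double knockdown.

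Markers of the cell types that use each isoform were read beside it. Of 9 cardiomyocyte markers 7 were higher and 1 lower with shMtfr1l than with shNT, 8 were lower with shOpa1, and 1 was higher and 5 lower in the double knockdown. Among all genes 10.8%, 29.4% and 23.1% were called in that order. Their summed level was 3082 to 3230 CPM in the double knockdown, 4915 to 5319 with shMtfr1l, 2331 to 2616 with shOpa1 and 3995 to 4172 with shNT. Myh6, the main myosin heavy chain of the adult mouse heart, averaged 86.8 ± 15.8 CPM in the double knockdown, 245 ± 16.3 with shMtfr1l, 30.4 ± 5.72 with shOpa1 and 50.8 ± 5.18 with shNT (SD, n = 3 each). Nppa, the atrial natriuretic peptide, was 2.84-fold lower in the double knockdown than with shNT, where Actc1 was not lower (edgeR adjusted p = 1.57e-09).

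Skeletal muscle markers, read beside Acta1, were mostly absent. Of 10 markers 4 could be tested, Myod1, Myf5 and Myf6, which specify skeletal muscle, were at 0 counts in all libraries, and 7 stayed under 1 CPM everywhere. Their summed level was 32.7 to 39.6 CPM in the double knockdown, 28.0 to 34.9 with shMtfr1l, 46.9 to 51.9 with shOpa1 and 26.3 to 35.4 with shNT. Myh1, a fast myosin, made up most of it, at 43.3 ± 3.66 CPM with shOpa1 and 25.9 ± 4.66 with shNT (SD, n = 3 each), and was the only one of the 4 called against shNT, 1.66-fold higher with shOpa1 (edgeR adjusted p = 4.49e-06). All-gene shares called were 10.8% with shMtfr1l, 29.4% with shOpa1 and 23.1% in the double knockdown.

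Smooth muscle markers summed to 187 to 207 CPM in the double knockdown, 227 to 238 with shMtfr1l, 188 to 209 with shOpa1 and 233 to 241 with shNT, with none of the 8 at 0. Against shNT none was higher, and 2 were lower in the double knockdown, 1 with shMtfr1l and 2 with shOpa1, at median log2 fold changes of -0.34, 0.07 and -0.32. With shMtfr1l the 1 called was Cnn1, while Synpo2 and Myocd had log2 fold changes of 0.26 and 0.33 that did not pass (edgeR adjusted p = 0.144 and 0.343). Cnn1, calponin of smooth muscle, was lower in all 3 knockdown groups: 1.96-fold in the double knockdown, 1.61-fold with shMtfr1l and 1.66-fold with shOpa1 (edgeR adjusted p = 3.61e-07, 0.000262 and 2.42e-05). Myh11, the smooth muscle myosin, averaged 21.6 ± 1.29 CPM in the double knockdown, 22.14 ± 1.154 with shMtfr1l, 21.2 ± 3.64 with shOpa1 and 20.1 ± 1.09 with shNT (SD, n = 3 each). Of 11 tested myofibroblast markers other than Acta2, 1 was higher and 5 lower with shMtfr1l, 1 higher and 6 lower with shOpa1, and 1 higher and 4 lower in the double knockdown. Among all genes 10.8%, 29.4% and 23.1% were called in that order. Lox, which cross-links collagen, was 1.96-fold, 1.66-fold and 1.90-fold lower in the double knockdown, with shMtfr1l and with shOpa1 (edgeR adjusted p = 1.47e-19, 6.27e-16 and 1.39e-19). Going the other way, the 1 higher with shOpa1 was Tnc, at 1.55-fold (edgeR adjusted p = 6.54e-10). Postn, periostin, averaged 1528 ± 22.8, 1630 ± 81.7, 1402 ± 32.0 and 1520 ± 43.2 CPM in the double knockdown, with shMtfr1l, with shOpa1 and with shNT (SD, n = 3 each).

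Other cells were also seen. Of 8 fibroblast markers 1 was higher and 5 lower with shMtfr1l, 2 higher and 3 lower with shOpa1, and 1 higher and 4 lower in the double knockdown. The all-gene shares called were 10.8%, 29.4% and 23.1% in that order. The sum of the fibroblast markers lay between 30030 and 36250 CPM, of which Col1a1 alone averaged 12500 CPM with shNT. Rarer markers hardly enter this sum. Against shNT, Tcf21 was 1.605-fold lower in the double knockdown, 1.44-fold with shMtfr1l and 1.505-fold with shOpa1 (edgeR adjusted p = 6.85e-11, 5.43e-08 and 7.89e-10). Col3a1 was 1.59-fold lower with shMtfr1l and 1.36-fold higher with shOpa1 (edgeR adjusted p = 9.57e-17 and 5.6e-13). Macrophage markers, 4 in the files, summed to 165 to 209 CPM in the double knockdown, 30.5 to 127 with shMtfr1l, 63.2 to 177 with shOpa1 and 45.4 to 83.4 with shNT, with none at 0. C1qa was 3.08-fold higher in the double knockdown and 2.81-fold higher with shOpa1 than with shNT (edgeR adjusted p = 0.02 and 0.0239). Endothelial markers, 5 in all, summed to 25.1 to 27.6 CPM in the double knockdown, 32.7 to 37.8 with shMtfr1l, 15.2 to 24.2 with shOpa1 and 19.6 to 27.2 with shNT, with none at 0. Of the 5, Kdr, a receptor for VEGF, was called: it was 2.16-fold higher with shMtfr1l and 1.72-fold lower with shOpa1 than with shNT (edgeR adjusted p = 0.00281 and 0.0224). In the double knockdown Kdr was 1.76-fold lower than with shMtfr1l and 2.11-fold higher than with shOpa1 (edgeR adjusted p = 0.0154 and 0.0105). The part of these cells in the muscle actin differences was not tested.

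Which other genes ran like each isoform was read from the correlation of log2 CPM over the 12 libraries, among 12147 genes that averaged 2 CPM or more. The libraries share groups and scaling, so these values are a description. Closest to Actc1 were Myh6 (r = 0.988), Sln, a peptide that regulates the calcium pump of atrial muscle (0.978), Atp2a2, the calcium pump itself (0.972), Fam134b (0.971) and Cyb561 (0.970). Closest to Acta2 were Cdo1, cysteine dioxygenase (0.973), Egln3, an oxygen-sensing prolyl hydroxylase (0.958), Dbi (0.955), Cnn1 (0.9497) and Seh1l (0.943). Closest to Acta1 were Mrps34 (0.915), Cog6 (0.911), Fam20b (0.902), Cp (0.897) and Xirp1, a Z-disc and intercalated disc protein of striated muscle (0.889). For Actg2 the highest values were lower, with Lpin1 at 0.818, Polr3b at 0.808, Psmc4 at 0.805, Pcgf5 at 0.799 and Lmcd1 at 0.784.

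Among themselves the isoforms ran apart. The correlation of log2 CPM with Actc1 was 0.21 for Acta1, -0.14 for Acta2 and 0.40 for Actg2. It was -0.62 between Acta1 and Acta2, 0.41 between Acta1 and Actg2 and -0.15 between Acta2 and Actg2.

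The first set gave the Mtfr1l comparison once more, at day 7 and with a labelled knockdown of 85%. Each sample has 3 count columns, which were summed and counted as 1 sample, so values are given without a test. The sums held 62923192 counts with shMtfr1l and 67068683 with shNT, and Mtfr1l stood at 8.73 CPM with shMtfr1l against 79.2 CPM with shNT. The sets were scaled separately, so levels are not compared between them.

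Actc1 stood at 1656 CPM with shMtfr1l against 919.5 CPM with shNT, a ratio of 1.80. Acta1 stood at 149 CPM against 35.4 CPM, a ratio of 4.22, and Acta2 at 1960 CPM against 2752 CPM, a ratio of 0.712. Actg2 stood at 24.95 CPM with shMtfr1l and 25.8 CPM with shNT, a ratio of 0.967. Actc1, Acta1 and Acta2 thus lay on the same side as in the second set. For these 3 genes the columns of shMtfr1l lay beyond those of shNT, while Actg2 overlapped. The columns of the cytoplasmic Actg1 lay apart too, at 1091 to 1170 CPM with shMtfr1l and 1414 to 1561 CPM with shNT. How many of all genes have columns that lie apart was not counted. Among 14575 genes with at least 10 counts in both sums the median log2 ratio was 0.002, and 6.86% lay over 0.5, as Actc1 and Acta1 did with 0.85 and 2.08.

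The shares of the isoforms in the first set also differed between the samples. Actc1 made up 43.7% of the muscle actin counts with shMtfr1l (exact 95% binomial interval 43.5 to 43.9) and 24.6% with shNT (24.5 to 24.8). Acta1 made up 3.94% (3.86 to 4.02) against 0.948% (0.910 to 0.987), and Acta2 51.7% (51.5 to 51.9) against 73.7% (73.6 to 73.9). These intervals cover counting error alone and treat each mate as independent. The columns of a sample differed by a chi-square of 4.28 to 7.27 per gene, and that spread is not in the intervals. The cytoplasmic actins had ratios of 0.979 (Actb) and 0.773 (Actg1).

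**Figure D5:**
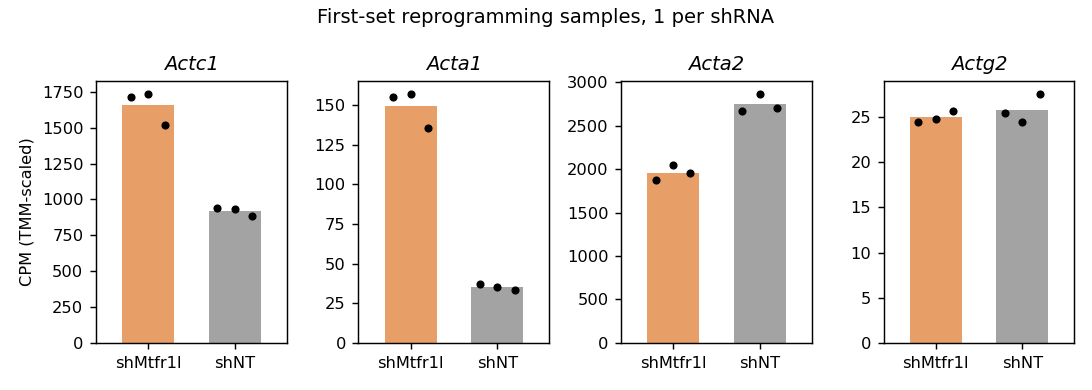
TMM-scaled CPM (y axes, linear from 0) of each muscle actin in the first-set samples with shMtfr1l (left bars) and shNT (right bars), with bars at the value of the summed counts and dots for the 3 columns of each sample. Actc1 and Acta1 are higher and Acta2 is lower with shMtfr1l, while Actg2 is 24.95 CPM against 25.8 CPM.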

How the data were processed

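Bulk RNA of reprogramming cultures was sequenced, and raw counts per gene were deposited. Per the file headers, the authors made these counts with featureCounts 2.0.6 on the UCSC genes of mm10, using strand and leaving out reads that map to several places or several genes. Each mate of a read pair counted by itself, so counts are not independent fragments. Per the submitters' processing notes FastQC and DESeq2 were used; no aligner is named there.

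Counts were scaled with TMM, filtered with filterByExpr and compared with edgeR 4.0.16 in R 4.3.3 (quasi-likelihood test, robust prior, 1 coefficient per group, 12 libraries, 8 residual degrees of freedom). Benjamini-Hochberg adjustment ran over 14162 of 23420 genes, and adjusted p-values under 0.05 were called. The robust prior was taken because it gives the calls of an earlier analysis of the series. CPM values are TMM-scaled, and log2 CPM uses a prior count of 2. Isoform shares were compared with an exact 2-sided permutation test, permuting 1 shRNA within the levels of the other (400 arrangements). Promoters are from RefSeq (GRCm38.p6) and coding sequences from GENCODE transcripts. Code was tested on simulated data. DESeq2 1.42.0, other scaling, no filter, a replicate block and left-out libraries were the alternatives.

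Titles tie replicates 1, 2 and 3 to days 7, 8 and 9 in every group, so by the titles a number marks a shared day. Deviations of same-numbered libraries from their group means correlated between -0.189 and 0.122 over 18 pairs. A field of the labels reads shOpa1, shOpa2 and shOpa3 over the replicates where titles say shOpa1, and groups follow the titles. That field counts up with the replicate number as the days do, so whether the days are real is not certain, and the replicate block may then hold no more than the number. In the first set 12 fibroblast columns, whose names give no day, were not used. The 4 genes and all lists were chosen with earlier results of these data known. Some genes stand in more than 1 list, such as Tnnt2, Tnni3, Actn2, Cap2 and Cfl2, so counts from different lists are not independent. Genes named beside the muscle actins are both targets, up to 4 per list and comparison with the smallest p, and the 5 with the highest correlation to each muscle actin over the libraries, among genes that averaged 2 CPM or more.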

Additional observations from a re-analysis of the deposited data

How the results depend on the processing

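Of 380 alternative values for the muscle actins 333 kept their direction and their side of the threshold. The prior spread without the robust setting, an alternative chosen after seeing the data, changed no call of a muscle actin. In the double knockdown against shNT, the log2 fold change of Actc1 was 0.29 and no longer called with DESeq2's size factors and with the replicate block. Against shMtfr1l, that of Acta2 was -0.11 and no longer called with DESeq2's size factors, with no low-count filter and with the replicate block. The replicate block changed no other call of a muscle actin. The Actc1 interaction of -0.34 became called with no low-count filter. When counts were taken per kilobase of exon, the share of Actg2 was 0.138 percentage points higher with the Opa1 shRNA (exact permutation p = 0.035, not adjusted). On plain counts its exact permutation p was 0.195. The group means of the per-kilobase share were 0.954% in the double knockdown, 0.938% with shMtfr1l, 1.03% with shOpa1 and 0.769% with shNT. The share of Acta2 differed by -1.55 points with the Opa1 shRNA when Actb and Actg1 were in the denominator.

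With 1 library left out, log2 fold changes that crossed the threshold or 0 had these ranges. For Acta1 they were 0.91 to 1.53 with shMtfr1l, 0.93 to 1.38 with shOpa1 and 1.02 to 1.31 in the double knockdown against shNT, and in the double knockdown -0.34 to 0.27 against shMtfr1l and -0.20 to 0.25 against shOpa1. For Actc1 they were 0.21 to 0.37 in the double knockdown against shNT and -0.45 to -0.26 for the interaction. For Acta2 in the double knockdown against shMtfr1l they were -0.12 to -0.087. For Actg2 they were -0.050 to 0.28 with shOpa1 and -0.013 to 0.094 in the double knockdown against shNT, and -0.23 to 0.096 in the double knockdown against shOpa1. Share differences ran from 0.0293 to 0.0869 points for Actg2 with the Mtfr1l shRNA and from 0.047 to 0.084 points for Acta1 with the Opa1 shRNA. The double knockdown against shOpa1 had 409 to 589 called genes.

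Leaving out replicate number 1 in every group gave Acta1 log2 fold changes of 0.97 with shMtfr1l and 1.05 with shOpa1 against shNT, both no longer called, and 0.34 in the double knockdown against shMtfr1l. Without number 2, Acta1 with shOpa1 (1.06) and Actc1 in the double knockdown against shNT (0.30) were no longer called, and Actg2 stood at -0.11 with shOpa1 and -0.031 in the double knockdown against shNT, and at 0.084 in the double knockdown against shOpa1. Without number 3, Acta1 with shMtfr1l (0.99) was no longer called and stood at 0.095 in the double knockdown against shMtfr1l and -0.14 against shOpa1, and the Actc1 interaction of -0.56 was called. Acta2 in the double knockdown against shMtfr1l (-0.090, -0.12 and -0.12) lost its call without each of the 3 numbers. Called genes fell to 790 and 878 with shMtfr1l, 370 and 199 in the double knockdown against shOpa1, and 222 and 161 for the interaction without numbers 1 and 2, and to 1964 in the double knockdown against shMtfr1l without number 1. Fewer libraries entered these fits, and other causes were not tested. Acta1 had 35 to 149 counts a library, the fewest of the 4 muscle actins, and its spread between replicates was not split into counting error and the rest.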
